A study of Homo sapiens with 6 samples.

Results

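The genes LMAN1, TMED7, SEL1L, HM13, TMX4 and RNF170 of the endoplasmic reticulum (ER) and the early secretory pathway were followed in an ATAC-seq screen of SMARCD2 depletion. Their regions were taken as every deposited region whose nearest gene was one of the 6. This gave 7 regions, 4 of the 323 listed in DMSO and 3 of the 268 listed in ATRA, or 7 of 591 in all. ATAC-seq uses the transposase Tn5 to insert sequencing adapters into open chromatin, so that reads pile up where DNA is accessible. The cells were NB4, an acute promyelocytic leukaemia line. Each treatment had 1 control library (CTRL) and 2 libraries with a short hairpin RNA against SMARCD2, which codes for a subunit of the SWI/SNF family of ATP-dependent chromatin remodellers, 1 library for shRNA1 and 1 for shRNA2. The undifferentiated cells were kept in DMSO and the differentiated cells in 1 µM all-trans retinoic acid (ATRA). What the control cells carried is not described here beyond the label of a control, and nothing in the labels says that the libraries came from separate cultures. The spread between the hairpins may therefore be technical, and the spread between controls was not measured.

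Proteins enter the secretory pathway through the ER membrane, where their signal peptides are removed and where they fold, form disulfide bonds and receive glycans. Folded cargo is collected by membrane receptors into vesicles that travel to the Golgi, while proteins that fail to fold are drawn back into the cytosol, ubiquitinated and degraded by the proteasome. Promyelocytes make large amounts of granule proteins, which pass through this route. LMAN1 (ERGIC-53) is a mannose-binding cargo receptor that cycles between the ER and the Golgi, and TMED7 is a cargo receptor of the p24 family. SEL1L is the adaptor of the HRD1 ubiquitin ligase in ER-associated degradation, and RNF170 is a ubiquitin ligase of the ER membrane that acts on inositol trisphosphate receptors. HM13 is signal peptide peptidase, an intramembrane protease that cuts signal peptide remnants. TMX4 is a thioredoxin-related protein anchored in the ER membrane.

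The promoters of the cargo receptors, of SEL1L and of TMX4 are shown because CCAAT and CCACG can be looked for there. These are the parts of the ER stress response element. The widest and best covered regions of these genes overlapped the gene. Here and below, inside the gene means a deposited distance of 0 bp to it. A region that reaches across the gene's start into its promoter also has that distance. Each sequence is the 250 bases before the gene's start in RefSeq (GRCh38.p14), printed on the gene's strand, which is the minus strand for all 4 genes. Capitals mark CCAAT and CCACG read on either strand (ATTGG and CGTGG on the printed one). The ATAC-seq regions are in GRCh37.p13 coordinates, and their position relative to these sequences was not determined. The intervals are chr18:59359266-59359515 for LMAN1, chr5:115626037-115626286 for TMED7, chr14:81533854-81534103 for SEL1L and chr20:8019762-8020011 for TMX4.
LMAN1: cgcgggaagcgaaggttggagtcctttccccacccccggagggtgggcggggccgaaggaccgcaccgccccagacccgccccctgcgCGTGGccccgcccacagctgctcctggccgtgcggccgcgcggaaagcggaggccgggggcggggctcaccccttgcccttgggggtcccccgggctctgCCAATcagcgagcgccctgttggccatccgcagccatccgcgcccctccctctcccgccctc
TMED7: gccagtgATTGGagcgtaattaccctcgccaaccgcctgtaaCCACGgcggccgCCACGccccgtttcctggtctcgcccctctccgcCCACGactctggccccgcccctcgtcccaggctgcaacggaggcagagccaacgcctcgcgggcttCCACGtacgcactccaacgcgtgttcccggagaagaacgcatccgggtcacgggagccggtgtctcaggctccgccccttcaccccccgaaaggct
SEL1L: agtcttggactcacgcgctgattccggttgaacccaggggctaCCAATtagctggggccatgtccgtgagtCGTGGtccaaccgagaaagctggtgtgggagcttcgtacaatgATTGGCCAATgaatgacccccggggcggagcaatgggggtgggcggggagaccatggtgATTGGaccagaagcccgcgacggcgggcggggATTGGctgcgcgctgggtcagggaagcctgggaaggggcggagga
TMX4: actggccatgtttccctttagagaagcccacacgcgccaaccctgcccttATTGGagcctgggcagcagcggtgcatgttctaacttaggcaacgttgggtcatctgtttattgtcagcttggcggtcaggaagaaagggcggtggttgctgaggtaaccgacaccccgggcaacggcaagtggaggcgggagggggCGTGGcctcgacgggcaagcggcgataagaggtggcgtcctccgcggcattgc

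The SEL1L promoter held 5 CCAAT boxes, the binding motif of NF-Y, and the other 3 promoters held 1 each. Over all 35116 promoters of the same length, 32.0% held at least 1 CCAAT and 0.874% held 4 or more. CCACG occurred 4 times in the TMED7 promoter and 1 time in each of the other 3. Over all promoters 33.5% held it at least 1 time and 0.615% held it 4 or more times. The full element, CCAAT and CCACG on 1 strand with 9 bases between them, matched in none of the 4 promoters and in 0.0740% of all. Other motifs were searched on both strands only in the spelling given, so other forms of these sites were not looked for. The motifs so spelled matched in none of these 4 windows. They were TGACGTG (the core of the unfolded protein response element, whose reverse complement can overlap CCACG), held by 1.68% of all promoters, TGATGNAA (amino acid response element, 3.14%), AGGTCA (a core site of retinoic acid receptors, 12.1%), TGANTCA (AP-1, 6.57%), GAGGAAG (PU.1, 11.2%), TTGCNNCAA (C/EBP, 1.62%) and TGTGGT (RUNX, 11%). GC content was 76.8% for LMAN1, 68.4% for TMED7, 63.6% for SEL1L and 61.2% for TMX4, against a median of 58.0% over all promoters.

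The members were selected on the same knockdown against control contrast that is described here. The deposited tables list only regions whose unadjusted p was below 0.005 and that had a gene within 10 kb. The values that follow are therefore a description with no test. In the authors' deposited table the unadjusted p was 0.00368 for LMAN1, 0.00242 for TMED7, 0.000553 for the DMSO region of SEL1L, 0.00445 for TMX4, 0.00430 for the ATRA region of SEL1L, 0.00102 for HM13 and 0.00492 for RNF170. RNF170 lay closest to the limit, and regions beyond the limit were not analysed here. RPM values are reads per 1000000 reads of effective library size. The sizes were recovered from the authors' fold changes and ranged from 11497000 to 14714000 reads in DMSO and from 14373000 to 17631000 in ATRA. How the recovered reads divide between the hairpins depends on the dispersion of the fit, and so do the RPM of each hairpin and the ratios between hairpins. Ratios of knockdown to control are summed hairpin reads over control reads on that scale, with a 95% exact (Clopper-Pearson) interval that covers counting error only. SMARCD2 itself had 0 listed regions in both tables, so its depletion was not checked here. Of 8 promyelocyte markers 1 (AZU1) was listed in DMSO and 0 in ATRA, and an unlisted gene says nothing about its accessibility, so the cell type was not checked either.

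In DMSO both cargo receptor regions were more accessible in the knockdown. The LMAN1 region (chromosome 18, 57026208 to 57026817, inside the gene) held 138 reads with shRNA1, 159 with shRNA2 and 71 in the control. Both hairpins stood above the control, at 10.0 and 10.8 RPM against 6.18, with no overlap. The ratio was 1.69 (1.30 to 2.22), and the hairpins differed by less than counting error (shRNA1 over shRNA2 0.929, 0.734 to 1.17).

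The TMED7 region (chromosome 5, 114961542 to 114962139, inside the gene) held 184 reads with shRNA1, 190 with shRNA2 and 92 in the control, or 13.4, 12.9 and 8.0 RPM. The hairpins again lay close together and above the control. The ratio was 1.64 (1.30 to 2.09), nearly that of LMAN1. In RefSeq TMED7 overlaps the readthrough gene TMED7-TICAM2 and the antisense gene TICAM2-AS1, and ATAC-seq reads do not tell such genes apart. On the scale of the authors' normalized counts the knockdown held 127 ± 6.54 at LMAN1 (SD, n = 2) against 85.2 in the control. TMED7 held 160 ± 4.12 (SD, n = 2) against 110 there. Both regions stayed higher on that scale, at 1.49-fold (1.15 to 1.96) and 1.45-fold (1.15 to 1.84).

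The TMX4 region, also in DMSO, went the other way (chromosome 20, 7999761 to 8000621, inside the gene). It held 245 reads with shRNA1 and 241 with shRNA2 against 283 in the smaller control library. These were 17.8 and 16.4 RPM against 24.6, so both hairpins stood below the control. The control was 1.44-fold higher than the knockdown (1.24 to 1.67), and 1.64-fold higher (1.41 to 1.90) by the normalized counts, of which the knockdown held 208 ± 12.5 (SD, n = 2) against 340. With a mean of 256 reads it was the best covered of the 7 regions, rank 6 of 323 in its table.

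SEL1L was the 1 member with a region in both tables, at different places. In DMSO the region lay 6822 bp outside the gene (chromosome 14, 81930967 to 81931068) and held 12 reads with shRNA1, 14 with shRNA2 and 0 in the control. With 3 reads put in place of the 0 control reads the knockdown was 3.50-fold higher, and 3.08-fold higher by the normalized counts. The exact lower limits, from the reads as counted, were 2.65 and 2.33. This rests on 26 reads, and 112 of the 323 DMSO regions likewise had 0 control reads.

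The ATRA region of SEL1L lay inside the gene, 68848 bp from the other (chromosome 14, 81999917 to 82000576). It held 283 reads with shRNA1, 251 with shRNA2 and 136 in the control, or 16.1, 14.5 and 9.46 RPM. Both hairpins were above the control on this scale, and the ratio was 1.62 (1.34 to 1.97). On the normalized count scale the order turned over. There the knockdown held 202 ± 31.9 (SD, n = 2) against 249, both hairpins lay below the control, and the ratio was 0.806 (0.666 to 0.980). No region of the DMSO table overlapped it, so its level in undifferentiated cells was not analysed here.

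RNF170, the other member that acts in ER-associated degradation, had a region in ATRA with values close to these. The region (chromosome 8, 42751320 to 42752409, inside the gene) was the widest of all 268 in the table. It held 209 reads with shRNA1, 231 with shRNA2 and 110 in the control, or 11.9, 13.4 and 7.65 RPM, and the hairpins did not overlap the control. The ratio was 1.65 (1.33 to 2.05). On the normalized count scale it was 0.821 (0.665 to 1.02), with 165 ± 0.474 in the knockdown (SD, n = 2) against 201, so the direction turned there as well and the interval included no change. In RefSeq RNF170 overlaps HOOK3, MIR4469 and RN7SL806P, and the nearest-gene label does not say which of them the region belongs to.

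HM13 had the fewest reads. Its 77 bp region (chromosome 20, 30150778 to 30150854, inside the gene) held 0 reads with shRNA1, 4 with shRNA2 and 15 in the control of ATRA. The control stood above both hairpins, 9.11-fold higher than the hairpins together (2.90 to 37.7), and 18.3-fold (5.82 to 75.6) by the normalized counts. Against shRNA2 alone the control was 4.51-fold higher (1.44 to 18.6), and with 0 reads shRNA1 alone gave no ratio. In RefSeq HM13 overlaps HM13-AS1 and MCTS2, a gene nested within it.

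**Figure D1:**
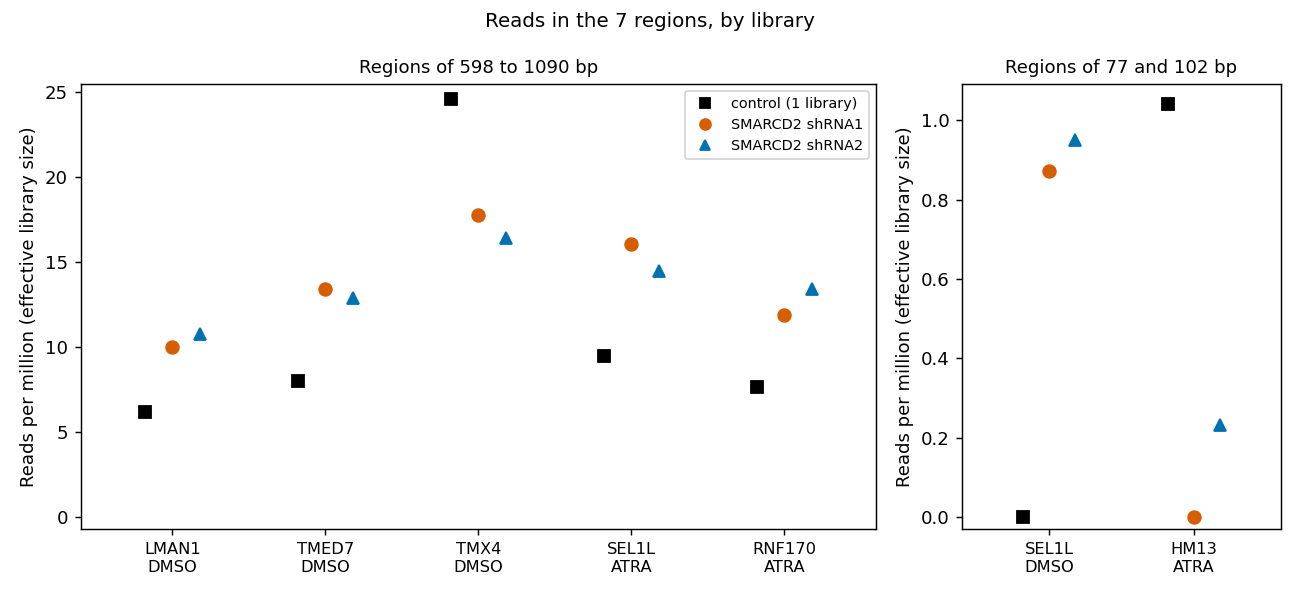
RPM (reads per 1000000 of effective library size, y axis) in each of the 7 regions (x axis), with 1 point per library: the control as squares, shRNA1 as circles and shRNA2 as triangles, and the wide and narrow regions on separate linear axes. Both hairpins lie above the control at LMAN1, TMED7, both SEL1L regions and RNF170, and below it at TMX4 and HM13.

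By direction, 3 of the 4 DMSO regions were higher in the knockdown and 1 was lower, where 65.9% of all listed DMSO regions were higher and 34.1% lower. In ATRA 2 of 3 were higher and 1 lower, where 79.1% of all listed regions were higher and 20.9% lower. On the normalized count scale the DMSO count was again 3 of 4, with 65.9% of all higher. In ATRA it was 0 of 3, with 69.4% of all higher. Since the same contrast chose the regions, these shares carry no evidence about the 6 genes.

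The factors behind the normalized counts could be traced. For all 6 libraries the authors' factor equalled, to 4 decimals, the reciprocal of the median-of-ratios size factor computed over the listed regions with reads in all 3 libraries of a table (202 regions in DMSO, 163 in ATRA). In ATRA it was 1.8309 for the control against 0.7927 for shRNA1 and 0.7143 for shRNA2, and in DMSO 1.2005 against 0.8846 and 0.8260. On this scale the median ratio of each library to the geometric mean of the 3 libraries, over those selected regions, is 1. Relative to the fold change scale it lowers every ratio of knockdown to control 1.14-fold in DMSO and 2.01-fold in ATRA. The 1.62-fold and 1.65-fold ratios of SEL1L and RNF170 in ATRA were smaller than that shift, while LMAN1, TMED7 and TMX4 in DMSO, the DMSO region of SEL1L, and HM13 kept their direction.

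**Figure D2:**
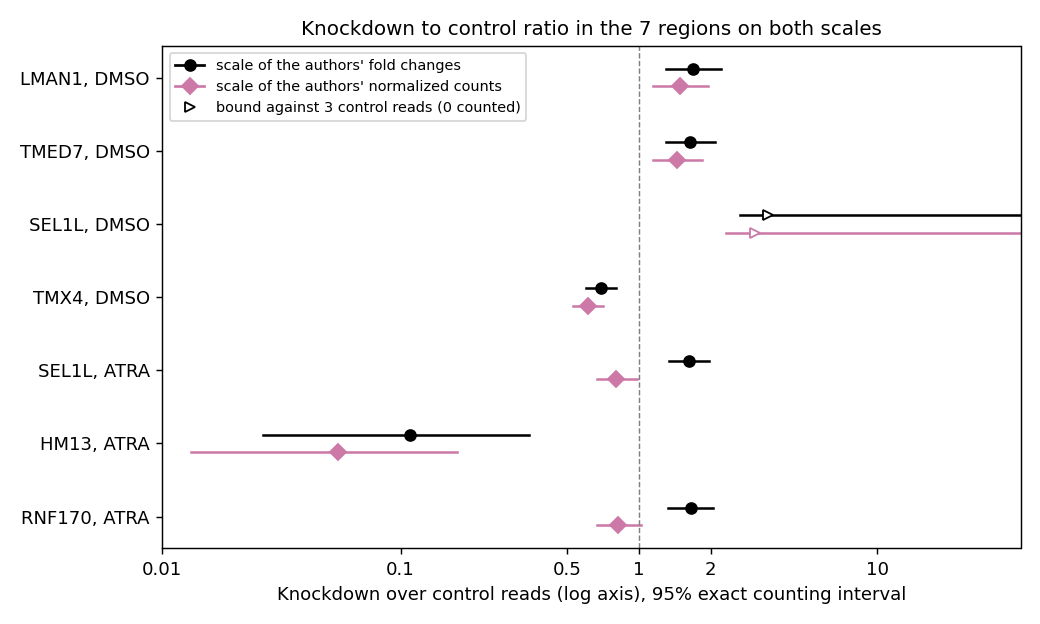
Knockdown over control ratio (log x axis) of each of the 7 regions (y axis) with its 95% exact counting interval, on the scale of the authors' fold changes (black circles) and of their normalized counts (pink diamonds), with open triangles for the region with 0 control reads, plotted against 3 control reads with no upper limit. SEL1L and RNF170 in ATRA cross the dashed line at 1 between the scales, from 1.62 to 0.806 and from 1.65 to 0.821.

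The regions differed from most of the tables in width and coverage. The genes were proposed with their coverage known, so these values too are a description. The 5 wide ones (LMAN1, TMED7, TMX4, and SEL1L and RNF170 in ATRA) measured 598 to 1090 bp. Over all listed regions the median was 141 bp for DMSO and 149 bp for ATRA, and 36 of 323 and 37 of 268 regions reached 500 bp. The mean over the 3 libraries was 123 reads at LMAN1, 155 at TMED7, 223 at SEL1L and 183 at RNF170 in ATRA, against a median of 12.3 over the DMSO table and 11 over the ATRA table. By reads, TMED7 ranked 22 and LMAN1 29 of 323, and SEL1L ranked 3 and RNF170 7 of 268. The other 2 regions, 102 bp near SEL1L and 77 bp in HM13, had means of 8.67 and 6.33 reads, ranks 203 and 250. Across the regions of a table width and reads were related (Spearman's rho 0.83 over 323 regions in DMSO and 0.81 over 268 in ATRA). This is a description, and the regions of 1 table share the same libraries.

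**Figure D3:**
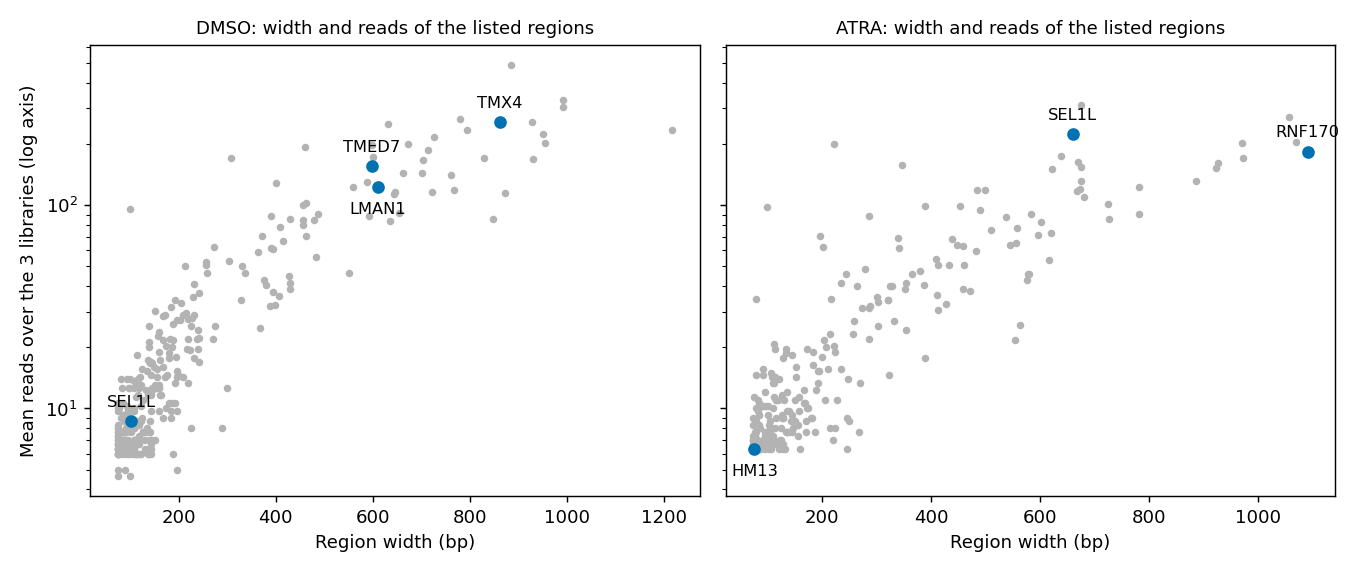
Width in base pairs (x axis) and mean reads over the 3 libraries of a table (log y axis) of every listed region in DMSO (left) and ATRA (right), with the regions of the 6 genes in blue. The wide regions lie among the best covered, while the DMSO region of SEL1L and the HM13 region lie at 8.67 and 6.33 reads.

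Levels per length are listed here as a description. The called width enters each value, and whether levels compare between regions of unlike width was not tested. HM13 (77 bp) and the DMSO region of SEL1L (102 bp) also held few reads. In the DMSO control, TMX4 had 28.6 RPKM (RPM per kilobase of region), TMED7 13.4 and LMAN1 10.1. In the shRNA1 library TMED7 stood at 22.4, TMX4 at 20.7 and LMAN1 at 16.5, and with shRNA2 TMED7 stood at 21.6, TMX4 at 19.0 and LMAN1 at 17.7. No interval was computed for differences between regions, so the order of TMED7 and TMX4 in the knockdown is not settled. The DMSO region of SEL1L reached 8.56 and 9.33 RPKM with the hairpins. In the ATRA control SEL1L had 14.3, HM13 13.6 and RNF170 7.02 RPKM. With shRNA1 and shRNA2, SEL1L had 24.3 and 22.0, RNF170 10.9 and 12.3, and HM13 0 and 3.01. The tables were normalized separately, so no level is set across them.

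The changes were small where coverage was high. The p limit shapes this relation, since a region with few reads passes it only with a large change. The 5 wide regions differed by 1.44-fold to 1.69-fold in either direction. Among all regions with a mean of at least 100 reads, a limit chosen after the values were seen, the size of the log2 fold change in the authors' deposited table ran from 0.46 to 0.95 in DMSO (36 regions) and from 0.64 to 1.02 in ATRA (24 regions). Of those 36 DMSO regions 5 were higher in the knockdown and 31 lower on both scales. LMAN1 and TMED7 were 2 of the 5, beside SH3RF3, RALGAPB and SNRPF, and TMX4 was 1 of the 31. Of the 24 ATRA regions 23 were higher and 1 lower on the fold change scale, with SEL1L and RNF170 among the 23. With the normalized counts 1 was higher and 23 lower. The turn of direction at SEL1L and RNF170 was thus shared by most ATRA regions of this coverage.

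**Figure D4:**
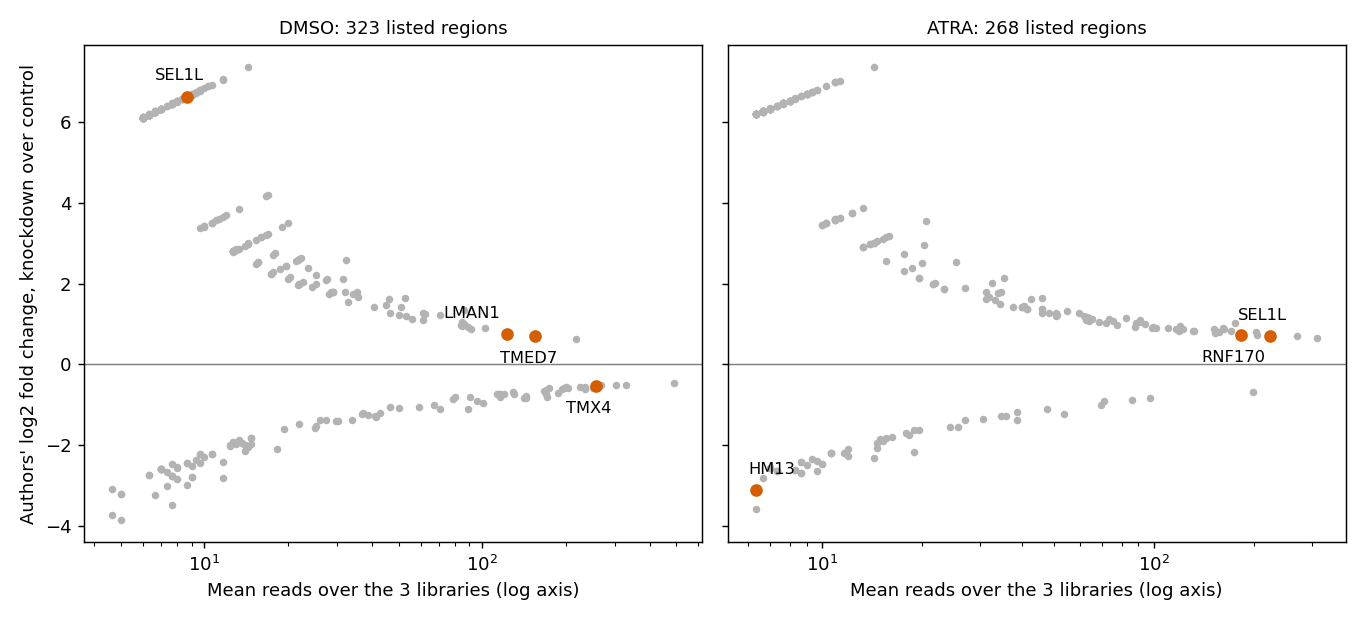
Mean reads over the 3 libraries (log x axis) and the authors' log2 fold change of knockdown over control (y axis) of each listed region in DMSO (left) and ATRA (right), with the regions of the 6 genes in orange. Above 100 reads LMAN1 and TMED7 are 2 of 5 DMSO regions above 0, and SEL1L and RNF170 are 2 of 23 ATRA regions above 0. The empty band around 0 is where regions did not reach the p limit.

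In each of the 7 regions shRNA1 and shRNA2 were both above or both below the control, whichever scale was used, a property that the selection by p favours. The share of all listed regions with this property was not computed, so nothing about these genes is read from it. The ratio of shRNA1 to shRNA2 ran from 0.886 (RNF170, 0.731 to 1.07) to 1.10 (SEL1L in ATRA, 0.928 to 1.31) in the 5 wide regions. Each of the 7 intervals included 1 on the fold change scale. Library sizes were also recovered at constant dispersions of 0.02 and 0.1. These replaced the fitted trend of dispersion over coverage, which was 0.05 at its reference level. The ratio was then 0.873 and 0.892 at RNF170, and 1.09 and 1.11 at SEL1L in ATRA. At TMX4 it was 1.16 and 1.07, against 1.09 with the fitted trend. By the normalized counts the ratio at SEL1L in ATRA was 1.25 (1.05 to 1.49).

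Other regions of the same tables with the most similar reads were sought by Euclidean distance in log2 RPM over the 3 libraries of a table, with 0.5 read added, 2 for each region. LMAN1 lay nearest to RALGAPB (142, 157 and 72 reads with shRNA1, shRNA2 and control, distance 0.049) and then to SNRPF (0.51). TMED7 lay nearest to RALGAPB (0.58) and SH3RF3 (0.85), and TMX4 to RRM2 (0.11) and CKAP2 (0.12). In ATRA the SEL1L region lay nearest to RNASET2 (0.33) and MYLIP (0.52), and RNF170 to RABEP2 (0.24) and RNASET2 (0.28). Low counts coincide easily. HM13 had the same reads as TRPC6 (0, 4 and 15) and lay close to DLG2 (0.37), and the DMSO region of SEL1L lay at 0.096 from regions of SDHB and PUS10.

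The wider pathway was taken from 7 lists holding 268 genes, the 6 members included. Of these 11 genes (4.10%) had a listed region in either table, 12 regions in all, and the other 257 had none. Of all 20056 RefSeq protein-coding genes 549, or 2.74%, had one by current symbol. The 6 members were chosen from the listed genes, so nothing is read from the difference. In the cargo receptor list LMAN1 and TMED7 were the 2 of 32 genes listed. In the ER-associated degradation list 3 of 57 genes were listed, SEL1L, RNF170 and YOD1, a deubiquitinase that works with the p97 ATPase. The YOD1 region in ATRA (158 bp, inside the gene) held 14 and 15 reads against 0. With 3 reads put in place of the 0 it was 3.98-fold higher in the knockdown, or 1.98-fold by the normalized counts. The exact lower limits, from the reads as counted, were 3.04 and 1.51. In the translocon list SEC62, a subunit of the protein translocation machinery, joined HM13 as 2 of 43 genes. Its DMSO region (328 bp) held 38 and 54 reads against 11 and was 3.38-fold higher (1.80 to 7.0).

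In the thioredoxin and oxidoreductase list TMX4 and QSOX1, a sulfhydryl oxidase gene, were the 2 of 31 genes listed. Both were lower in DMSO, as were 34.1% of all listed DMSO regions. The QSOX1 region (75 bp) held 2 and 5 reads against 17 and was 6.01-fold higher in the control (2.37 to 17.1), or 10.2-fold against shRNA1 alone (2.41 to 90.7). In the coat list 2 of 32 genes were listed. ARF1, the small GTPase that recruits COPI, had a DMSO region with 79 and 80 reads against 113, 1.76-fold higher in the control (1.37 to 2.25). GBF1, the exchange factor that activates ARF1, had an ATRA region with 7 and 10 reads against 27, 3.86-fold higher in the control (2.03 to 7.54). The chaperone and glycoprotein list (41 genes) and the unfolded protein response list (32 genes) had 0 listed regions. Over all lists 4 regions were higher and 3 lower in DMSO on both scales, where 65.9% of all listed regions were higher. In ATRA 3 were higher and 2 lower on the fold change scale, where 79.1% of all were higher. On the normalized count scale 1 was higher and 4 lower, where 69.4% of all were higher. Nothing about the pathway is read from these counts, since the same contrast chose the regions.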

How the data were processed

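Regions with ATAC-seq reads were deposited as 1 table for each treatment. The submitters' processing notes name the build GRCh37.p13 and the tools STAR, MACS2, edgeR, bcl2fastq and Picard 2.5.0. Which step each performed, its settings, the Tn5 offset and any pooling before peak calling were not given in the sources used here. As the authors deposited them, the tables hold raw counts of reads, normalized counts (a signal, the raw counts times 1 factor per library), log2 fold changes and mean log2 CPM, an F score and an unadjusted p-value, per the file headers. The largest deposited p-value is 0.00499 in DMSO and 0.00498 in ATRA.

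Columns were matched to libraries by the hairpin number in the descriptions and by title. The description of the DMSO control names ATRA, so its title was followed. Effective library sizes were recovered by fitting edgeR 4.0.16 formulas (R 4.3.3) to the deposited log2 fold changes and mean log2 CPM, with a largest deviation of 0.0065 log2 units in DMSO and 0.0017 in ATRA in the fold changes. The fit takes a negative binomial dispersion as a trend over mean log2 CPM, estimated at 0.05 at its reference level. The slope of the trend is not given here. With no dispersion only the sum of the hairpins' sizes was taken as determined, in both treatments. The same code returned known sizes on simulated data built with the same formulas and a constant dispersion. That checks the fitting, not whether the authors' run used these formulas. Listed regions held 11001 to 12982 reads per library in DMSO and 5530 to 11371 in ATRA. No test was run on the contrast that selected the regions. Counting intervals came from scipy 1.17.1 and a floor of 3 reads replaced 0 control reads in a ratio.

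The members and gene lists were chosen with earlier results of these data known. The text names every listed region of the members and of the lists, and the 2 nearest regions of each member region. SH3RF3, RALGAPB and SNRPF among the well covered regions were named after their values were seen. A motif search planned for the regions was made on RefSeq promoters, since no genome of the build was used here. Of the 6 members 4 matched a promoter, and all 268 list genes matched a RefSeq symbol or synonym. Alternatives were the normalized count scale, median-of-ratios factors, each hairpin alone, the mean of the hairpins' log2 ratios, a minimum mean of 10 reads and, chosen after seeing the data, library sizes recovered with other dispersions.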

Additional observations from a re-analysis of the deposited data

How the results depend on the processing

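Of 60 alternative log2 ratios of the 7 regions, 47 moved by less than the spread between the hairpins, 9 moved by more than that without a change of direction, and 4 turned. The 4 are the SEL1L and RNF170 regions in ATRA, at -0.31 and -0.28 (log2) both on the normalized count scale and with median-of-ratios factors, which are the same scale. On it the count of higher ATRA regions was 0 instead of 2. Many of the 47 could hardly have moved by more. Leaving out 1 of 2 hairpins moves a ratio by less than their spread, and a minimum of reads leaves it as it is. At HM13 the spread was 2.26, so the move from -3.19 to -4.19 on the normalized count scale is among the 47. Leaving out either hairpin changed no count of higher regions (3 in DMSO, 2 in ATRA). Without shRNA2 the HM13 region had 0 knockdown reads and gave no ratio. A minimum mean of 10 reads removed the DMSO region of SEL1L and the HM13 region, which left 2 higher regions in each treatment. With the mean of the hairpins' log2 ratios, which also adds 0.5 read to each library in place of the floor, the log2 ratio of the DMSO region of SEL1L was 4.44 instead of 1.81. Library sizes recovered with no dispersion, or with dispersions of 0.02 and 0.1, were tried after seeing the data. They changed no direction of the 7 log2 ratios. As each fit was made to the deposited fold changes, the directions were bound to stay, and this is no check of them. These fits missed the deposited mean log2 CPM by up to 0.026 to 0.07, against at most 0.0016 for the fitted dispersion. With no dispersion the split between the hairpins was not taken as determined in either treatment, so no ratio between hairpins was taken from that fit. Counting only regions inside a gene gave 11 list regions instead of 12. No paired analysis was possible because each treatment has 1 control library and the hairpin numbers occur in the knockdown arm alone. With 1 control, its own variation is part of every ratio and was not measured, and regions with under 10 reads give wide intervals.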
